A study of Mus musculus with 60 samples.

Results

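The genes described here are 10 components of the inflammasome, the cytosolic complex that turns on inflammatory caspases: the sensors Naip1, Naip2, Naip5 and Naip6, their partner Nlrc4, the sensor Nlrp3, the adaptor Pycard, the caspases Casp1 and Casp4 and the pore protein Gsdmd. They were taken by symbol, and all 10 were found among the 24411 genes of the table. RNA came from Kupffer cells, the macrophages that reside in liver sinusoids, of 3 groups of 5 C57BL/6J mice, male per the labels and 8 weeks old. One group was wild type and received corn oil, another was wild type and received carbon tetrachloride (CCl4), and the third was Trem1-deficient and received CCl4. CCl4, a hepatotoxin, was given in corn oil as a single dose of 2 µl per g, and livers were taken at 12 h. Trem1-deficient mice given oil were not analysed here, so what the deficiency does without CCl4 cannot be read from these groups. The labels do not give the Trem1 allele or say whether the groups were littermates. Cells were taken in a liver digest by removing those that bound CD11b beads and then collecting F4/80-positive cells, and each mouse gave 1 library of 3′ tags.

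NAIP proteins bind bacterial proteins directly in the cytosol. NAIP1 recognises the needle and NAIP2 the inner rod of the type III secretion system, and NAIP5 and NAIP6 recognise flagellin; each then recruits NLRC4. NLRP3 responds instead to cell damage, such as potassium efflux, and reaches caspase-1 through ASC, the product of Pycard. Caspase-1 matures interleukin-1β and interleukin-18 and cleaves gasdermin D, whose fragment forms pores in the plasma membrane. Caspase-11, the product of mouse Casp4, binds lipopolysaccharide itself and also cleaves gasdermin D. In the liver, Kupffer cells meet bacterial products that arrive in portal blood.

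The 4 NAIP genes lie side by side on the minus strand of chromosome 13 (GRCm38, GENCODE M21 annotation), within 308807 bases: Naip2 at 100144063 to 100202092, Naip5 at 100211739 to 100246323, Naip6 at 100281121 to 100317674 and Naip1 at 100407764 to 100452869. The 150 bases before each RefSeq start site (GRCm38.p6, minus strand, chr13:100452865-100453014, chr13:100202123-100202272, chr13:100247337-100247486 and chr13:100316617-100316766 in the order printed) are shown because Naip1 was the one NAIP gene that passed the test below, while its neighbours did not. Capitals mark every run of at least 10 bases that the upstream 250 bases of 3 or more of these genes share on the gene's strand.
Naip1: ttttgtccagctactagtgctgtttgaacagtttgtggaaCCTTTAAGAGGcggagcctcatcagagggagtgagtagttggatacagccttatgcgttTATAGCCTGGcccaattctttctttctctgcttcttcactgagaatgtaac
Naip2: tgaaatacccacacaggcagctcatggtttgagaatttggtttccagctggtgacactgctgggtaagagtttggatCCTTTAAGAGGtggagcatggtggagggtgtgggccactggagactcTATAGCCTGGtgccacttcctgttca
Naip5: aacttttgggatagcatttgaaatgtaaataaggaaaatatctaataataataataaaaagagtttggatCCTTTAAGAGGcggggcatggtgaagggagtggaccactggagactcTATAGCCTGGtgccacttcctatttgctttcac
Naip6: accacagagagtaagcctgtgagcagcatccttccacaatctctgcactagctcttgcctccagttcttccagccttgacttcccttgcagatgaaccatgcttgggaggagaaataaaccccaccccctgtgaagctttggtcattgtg

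Naip1, Naip2 and Naip5 shared both capitalised runs, in the same order, and Naip6 held neither in its window. The RefSeq start of Naip6 lies inside the GENCODE gene, which has a transcript that starts further upstream, and the sequence before that start was not searched. The run CCTTTAAGAGG ended 100 bases before the start site of Naip1, 63 before that of Naip2 and 70 before that of Naip5, and 0.0883% of 32851 mouse promoters held it on either strand within 250 bases. The run TATAGCCTGG ended 42, 17 and 24 bases before those start sites, and 0.0548% of promoters held it. The runs were chosen after the sequences were seen, and Naip1 did not differ from Naip2 and Naip5 in holding them. Promoters were found for 9 of the 10 genes, Gsdmd being the one without. Their 250 upstream bases were searched on both strands for an interferon-stimulated response element (GAAA, any 2 bases, GAAA; in 2.98% of all promoters), an ETS-IRF composite element (GGAA, any 2 bases, GAAA; 2.3%), a gamma-activated site (TTCNNNGAA, 7.02%) and the core site of the macrophage factor PU.1 (GAGGAAGT, 2.44%). The single match was a PU.1 core on the minus strand of the Pycard promoter, 44 to 37 bases before the start site, read there as ACTTCCTC.

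The remaining genes are spread over other chromosomes. Casp1 (chromosome 9, 5298517 to 5307265) and Casp4 (5308828 to 5336783) are plus-strand neighbours 1562 bases apart. Nlrc4 is at 74425438 to 74459142 of chromosome 17 (minus strand), Nlrp3 at 59541568 to 59566956 of chromosome 11 (plus), Pycard at 127989708 to 127993867 of chromosome 7 (minus) and Gsdmd at 75862327 to 75867408 of chromosome 15 (plus). The last 500 transcript bases, where 3′ tag reads fall, were compared by runs of 50 bases with every other annotated gene. No such run was shared for 8 of the 10 genes; 6.21% were shared for Naip5 and 11.8% for Nlrc4, none of them with another NAIP gene. Over whole transcripts, by contrast, 22.1% of the 50-base runs of Naip1, 18.3% of Naip2, 32.3% of Naip5 and 20.8% of Naip6 occurred in another of the 4. None of the 4 annotated genes that overlap a member covers its 3′ end.

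Libraries held 812320 to 2593004 counts in genes, of 12.6 to 28.8% of all reads, and 3 counts are 0.988 to 4.09 CPM. CPM is the count-per-million scale, here with each library total multiplied by its TMM scaling factor, and all levels and marker sums are on it. Trem1 lay between 1.16 and 10.7 CPM in Trem1-deficient mice, between 32.4 and 107 CPM in wild-type mice given oil and between 109 and 566 CPM in wild-type mice given CCl4; every Trem1-deficient mouse was below every wild-type mouse. The summed level of 12 Kupffer cell markers, all 12 with counts in each group, was 32169 to 63505 CPM after oil, 4500 to 19960 CPM in wild type after CCl4 and 33305 to 49792 CPM in Trem1-deficient mice after CCl4. Sums of 9 monocyte markers (515 to 1224, 2581 to 4870 and 629 to 1422 CPM, in the same order), 11 neutrophil markers (227 to 1727, 1216 to 10643 and 337 to 3140 CPM) and 12 hepatocyte markers (3056 to 15217, 12146 to 34674 and 1456 to 15243 CPM) had their highest values in wild type after CCl4, although the CD11b step should remove the first 2 cell types; of these lists, only the hepatocyte gene Ass1 was at 0 in every library. Over all 15 libraries the sums of sinusoidal endothelium (813 to 3223 CPM), dendritic cell (18.6 to 757), T and NK cell (1.88 to 183), B cell (2.89 to 162) and stellate cell markers (11.9 to 296) had ranges that overlapped between the 3 groups. Library index numbers fall into 2 series: one holds the oil mice with Trem1-deficient mice 1 and 2, and the other holds the wild-type mice given CCl4 with Trem1-deficient mice 3 to 5. Xist and Y-linked counts split the mice the same way, against labels that say all are male. The oil mice showed a female pattern (Xist 72 to 755 counts, Y-linked 0). So did Trem1-deficient mice 1 and 2 (Xist 1552 and 1400, Y-linked 7 and 0). Wild-type mice given CCl4 showed a male pattern (Xist 2 to 17, Y-linked 135 to 358). Trem1-deficient mice 3 to 5 shared it (Xist 31, 3 and 1, Y-linked 425, 134 and 273). The oil and CCl4 groups of wild type therefore cannot be told apart from that split. The Trem1-deficient group holds both patterns, so its comparison with either wild-type group is partly mixed with the split. In bulk RNA, fewer cells of a type and less RNA per cell cannot be told apart. Both comparisons with wild type after CCl4 share those 5 mice.

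Naip1 was the only member past the threshold in the main test, narrowly, with CCl4 in wild type and with Trem1 deficiency. Casp1 moved in the same directions but did not pass, and differences between members were not tested. Naip1 RNA was close to absent in wild-type mice after CCl4 and present in every Trem1-deficient mouse given the same dose. In 3′ tag data a level counts transcripts without division by length.

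After oil, Naip1 stood at 18.5, 2.47, 22.5, 41.6 and 20.7 CPM in mice 1 to 5. After CCl4 it stood at 3.93 CPM (6 counts) in wild-type mouse 1 and at 0 counts in the other 4, where 3 counts would be 1.69 to 4.09 CPM. In Trem1-deficient mice after CCl4 it was at 20.1, 48.7, 12.0, 48.3 and 12.1 CPM. All 5 Trem1-deficient mice therefore lay above all 5 wild-type mice given CCl4, whereas oil mouse 2 (2 counts) fell among the latter. Naip1 fell in wild type after CCl4, with a log2 fold change of -4.48 ± 1.29 (SE) and an adjusted p of 0.0382 (edgeR quasi-likelihood test, Benjamini-Hochberg). It was higher in Trem1-deficient than in wild-type mice after CCl4 by 4.89 ± 1.31, with an adjusted p of 0.0446 in the same fit, and all 5 mice showed that direction. Against oil, the Trem1-deficient mice differed by 0.41 ± 1.07 (95% interval -1.93 to 2.75, adjusted p = 1.00).

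Both Naip1 calls are close to the threshold and rest on few counts. In wild type the call was lost without oil mouse 1, 3, 4 or 5 or CCl4 mouse 2, 3 or 4 (adjusted p 0.0595 to 0.102 in edgeR). With Trem1 deficiency it was lost without Trem1-deficient mouse 1, 2, 3 or 4 or wild-type mouse 2, 3, 4 or 5 (0.0553 to 0.129). Counting every alternative that tested Naip1, 6 of 16 kept the call in wild type and 5 of 18 kept that with Trem1 deficiency. Those that kept it in wild type included DESeq2's Wald test (adjusted p = 0.00177) and edgeR without CCl4 mouse 1 (-8.09, adjusted p = 0.00452). An exact two-sided permutation test on log2(CPM + 1) was added after the data were seen. Its raw p was 0.0159 after CCl4 in wild type and, with Trem1 deficiency, 0.00794, the smallest that 5 against 5 mice allow. Adjusted over the 30 tests of 10 genes in 3 comparisons both were 0.159. A gene alone at that smallest p could not pass after adjustment over 30 tests, so the adjusted values cannot decide on the calls. Within the only index series that holds both genotypes after CCl4 (3 Trem1-deficient and 5 wild-type mice) the log2 difference was 4.69, with an adjusted p of 0.375 in edgeR's fit. With the index series as a term the value in wild type after CCl4 was -3.97 (adjusted p = 0.799). Naip1 was low in the wild-type CCl4 libraries, which had the lowest Kupffer marker sums (4500 to 19960 CPM). Oil mouse 2, with the next lowest sum (32169 CPM), had 2.47 CPM of Naip1. Trem1-deficient mouse 1 (sum 33305 CPM), however, had 20.1 CPM. Trem1-deficient mice 3 and 5, with higher sums (49668 and 44791 CPM), had 12.0 and 12.1 CPM. The part of Kupffer cells in the Naip1 level was not tested.

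**Figure D1:**
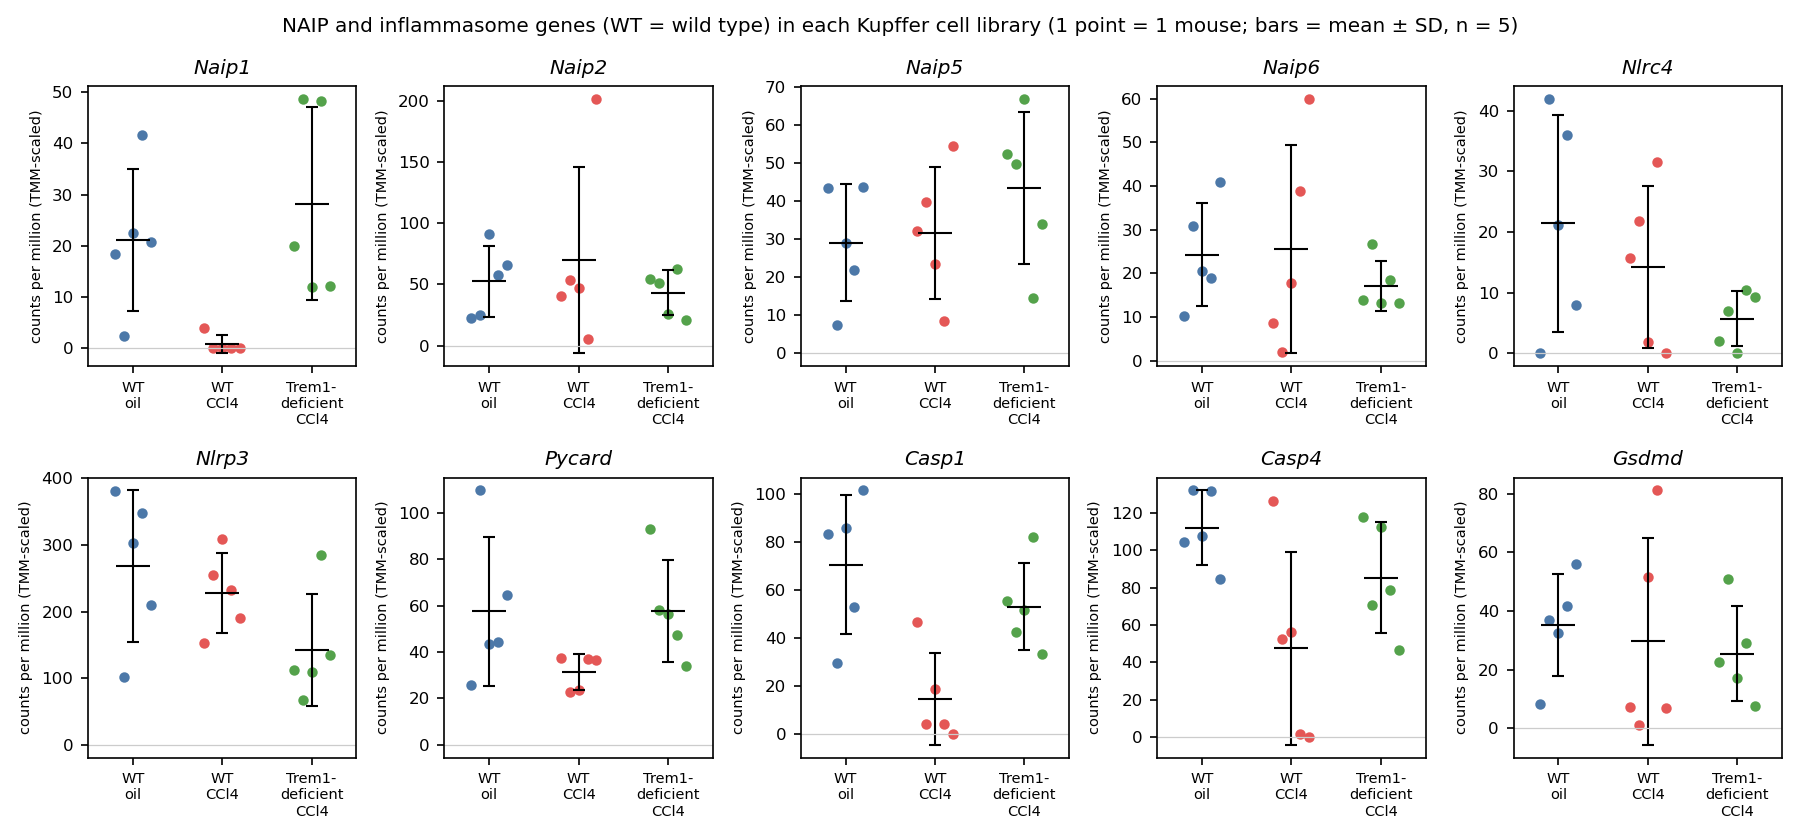
Level of each of the 10 genes in TMM-scaled CPM (vertical axes, linear, each with its own scale) in wild-type mice given oil, wild-type mice given CCl4 and Trem1-deficient mice given CCl4. Points are mice and black bars the mean ± SD of 5 mice. Naip1 is at 0 in 4 of 5 wild-type mice after CCl4, while every other gene overlaps between any 2 groups. The share of all tested genes without overlap is not given here.

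The other NAIP genes did not pass the threshold in any comparison. Naip2, the inner rod sensor, was at 22.2, 24.7, 91.5, 57.7 and 65.9 CPM after oil, at 40.6, 53.5, 47.0, 5.64 and 202 CPM in wild type after CCl4 and at 54.3, 51.4, 26.1, 62.8 and 20.8 CPM in Trem1-deficient mice. The wild-type CCl4 mice spanned both other groups, with mouse 4 below and mouse 5 above every other mouse of the study. The log2 difference was 0.40 ± 0.70 for CCl4 in wild type (95% interval -1.12 to 1.92) and -0.68 ± 0.70 for Trem1 deficiency (95% interval -2.21 to 0.84).

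Naip5, a flagellin sensor, was at 43.5, 7.40, 28.9, 21.8 and 43.8 CPM after oil, at 32.1, 39.7, 23.5, 8.46 and 54.5 CPM in wild type after CCl4 and at 52.4, 49.7, 66.8, 14.5 and 34.1 CPM in Trem1-deficient mice. The groups overlapped throughout, with differences of 0.11 ± 0.75 and 0.47 ± 0.75 on the log2 scale in those 2 comparisons. Naip6, its close relative, was at 10.2, 30.8, 20.4, 18.9 and 41.0 CPM after oil, at 8.52, 1.98, 17.9, 38.9 and 60.0 CPM in wild type after CCl4 and at 13.8, 26.7, 13.3, 18.5 and 13.3 CPM in Trem1-deficient mice. Its highest and lowest mice were both in the wild-type CCl4 group, and the differences were 0.06 ± 0.90 and -0.56 ± 0.90. Over Naip2, Naip5 and Naip6 in both comparisons the 95% intervals ran from -2.52 at the lowest to 2.10 at the highest. A change inside a gene's own interval was not excluded. Whether Naip1 differs from its 3 neighbours in its response was not tested.

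The 4 genes summed to a median of 140 CPM after oil (65.4 to 171), 88.4 CPM in wild type after CCl4 (53.0 to 316) and 141 CPM in Trem1-deficient mice (80.3 to 177). In wild type after CCl4, 4 of 5 mice lay at 53.0 to 95.2 CPM and mouse 5 alone stood at 316. The make-up of the sum varied among mice. Naip1 gave 3.77 to 29.7% of the 4 genes' counts after oil and 10.1 to 33.5% in Trem1-deficient mice. In wild type after CCl4 it gave 4.62% in mouse 1 (6 of 130 counts, exact 95% Clopper-Pearson interval 1.71 to 9.78%, for counting error only). In the other 4 it gave 0 of 94 to 232 counts, with exact 95% upper limits of 1.58 to 3.85%; 3 counts, the floor used here for a count of 0, would make 1.29 to 3.19%. Naip2 was the largest part in 4 of those 5 libraries and Naip6 gave 73.4% in mouse 4.

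**Figure D2:**
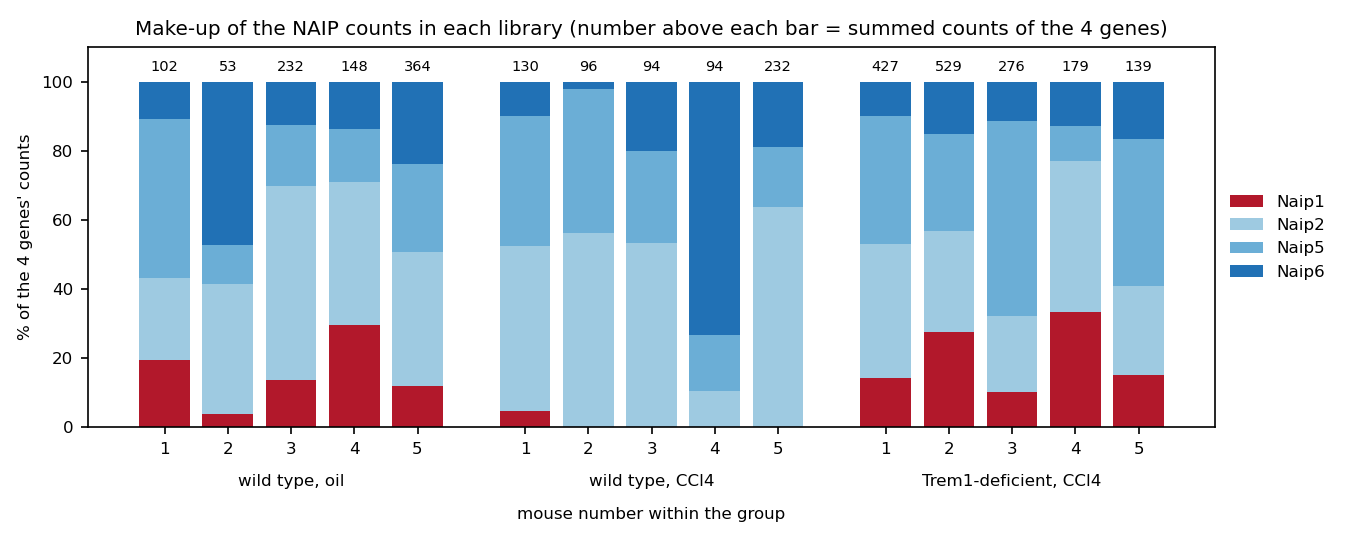
Share of Naip1, Naip2, Naip5 and Naip6 in the summed counts of the 4 genes (vertical axis, percent) in each of the 15 libraries, grouped by genotype and treatment; the number above each bar is the summed count. Naip1 (red) is between 3.77 and 33.5% in the oil and Trem1-deficient libraries and at 0 to 4.62% in wild type after CCl4.

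Nlrc4, the platform that all NAIP proteins recruit, was at 0, 42.0, 21.1, 36.0 and 8.00 CPM after oil, at 15.7, 21.8, 1.88, 31.6 and 0 CPM in wild type after CCl4 and at 1.98, 7.01, 0, 10.5 and 9.24 CPM in Trem1-deficient mice. Each group had 1 mouse at 0 counts, and all groups overlapped. The log2 difference was -0.57 ± 1.26 for CCl4 in wild type, -1.32 ± 1.28 for Trem1 deficiency and -1.89 ± 1.30 for Trem1-deficient mice after CCl4 against oil (95% interval -4.72 to 0.93).

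Nlrp3, the damage sensor, had the highest level of the 10 genes in each group. It was at 381, 101, 303, 348 and 210 CPM after oil, at 153, 255, 309, 232 and 191 CPM in wild type after CCl4 and at 113, 67.1, 110, 286 and 135 CPM in Trem1-deficient mice. In the last group 4 of 5 mice lay below all wild-type CCl4 mice, and mouse 4 lay among them. Means were 269 ± 114, 228 ± 60.0 and 142 ± 83.9 CPM (SD, n = 5). CCl4 in wild type moved Nlrp3 by -0.24 ± 0.39 on the log2 scale (95% interval -1.09 to 0.62). Trem1-deficient mice stood at -0.69 ± 0.39 against wild type after CCl4 (raw p = 0.0915, adjusted p = 0.419 in edgeR) and at -0.92 ± 0.39 against oil (raw p = 0.0261, adjusted p = 0.877). Within the first index series, that is Trem1-deficient mice 1 and 2 against the oil mice, the second value was -1.56 (adjusted p = 0.309).

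Pycard, which encodes the adaptor ASC, was at 25.9, 110, 43.7, 44.5 and 64.5 CPM after oil, at 37.3, 22.8, 23.5, 37.2 and 36.8 CPM in wild type after CCl4 and at 93.2, 58.1, 56.6, 47.5 and 34.1 CPM in Trem1-deficient mice. The wild-type CCl4 mice formed a narrow band at the low end of the other groups, and all 5 lay below the oil mean. The log2 difference was -0.87 ± 0.61 for CCl4 in wild type (adjusted p = 0.490 in edgeR) and 0.87 ± 0.61 for Trem1 deficiency (adjusted p = 0.532). Trem1-deficient mice after CCl4 and oil mice had nearly the same mean, 57.9 ± 21.9 and 57.7 ± 32.2 CPM (SD, n = 5).

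The 2 inflammatory caspases, neighbours on chromosome 9, were uneven among wild-type mice given CCl4. Casp1 was at 83.3, 29.6, 85.9, 53.0 and 102 CPM after oil, at 46.5, 3.97, 18.8, 3.95 and 0 CPM in wild type after CCl4 and at 55.6, 42.7, 51.8, 82.1 and 33.5 CPM in Trem1-deficient mice. Of the wild-type CCl4 mice, 4 of 5 lay below every other mouse, and mouse 1 lay within both other groups. The log2 difference with CCl4 in wild type was -2.25 ± 0.81 (raw p = 0.0096, adjusted p = 0.107 in edgeR), and that with Trem1 deficiency 1.83 ± 0.80 (raw p = 0.0295, adjusted p = 0.260), so neither passed. Without wild-type CCl4 mouse 1 they were -3.38 (adjusted p = 0.0165) and 2.97 (adjusted p = 0.0395) in edgeR, and DESeq2's Wald test with all mice gave -2.23 with an adjusted p of 0.0235 for CCl4.

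Casp4, the lipopolysaccharide-binding caspase, was at 105, 132, 108, 131 and 84.8 CPM after oil, at 126, 52.5, 56.4, 1.69 and 0 CPM in wild type after CCl4 and at 118, 70.4, 112, 78.8 and 46.8 CPM in Trem1-deficient mice. It had the smallest relative spread of the 10 after oil, with an SD of 17.8% of the mean, and an SD of 109% of the mean in wild type after CCl4. Differences were -1.23 ± 0.75 on the log2 scale for CCl4 in wild type (adjusted p = 0.405) and 0.84 ± 0.75 for Trem1 deficiency (adjusted p = 0.656), both in edgeR. Wild-type CCl4 mouse 1, the highest of its group for Casp1, Casp4 and Naip1, also had the group's highest Kupffer marker sum (19960 CPM, against 4500 to 8636 in the other 4). Mice 4 and 5, the lowest for both caspases, had the lowest sums (4500 and 4605 CPM). For Casp1, however, mouse 2 (3.97 CPM, sum 7179 CPM) was almost level with mouse 4 (3.95 CPM). The part of this in the caspase levels was not tested.

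Gsdmd, the pore-forming substrate of both caspases, was at 8.33, 37.0, 32.4, 41.6 and 56.0 CPM after oil, at 7.21, 0.991, 51.7, 81.2 and 6.82 CPM in wild type after CCl4 and at 22.7, 50.7, 17.1, 29.0 and 7.51 CPM in Trem1-deficient mice. Wild-type CCl4 mice split into 3 low and 2 high, and the high ones, mice 3 and 4, were those with the 2 highest neutrophil marker sums (7231 and 10643 CPM). Mouse 2, next at 6649 CPM, had the lowest Gsdmd, and the part of neutrophils was not tested. CCl4 moved Gsdmd by -0.24 ± 0.91 in wild type on the log2 scale, and Trem1 deficiency by -0.23 ± 0.91, neither past the threshold.

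**Figure D3:**
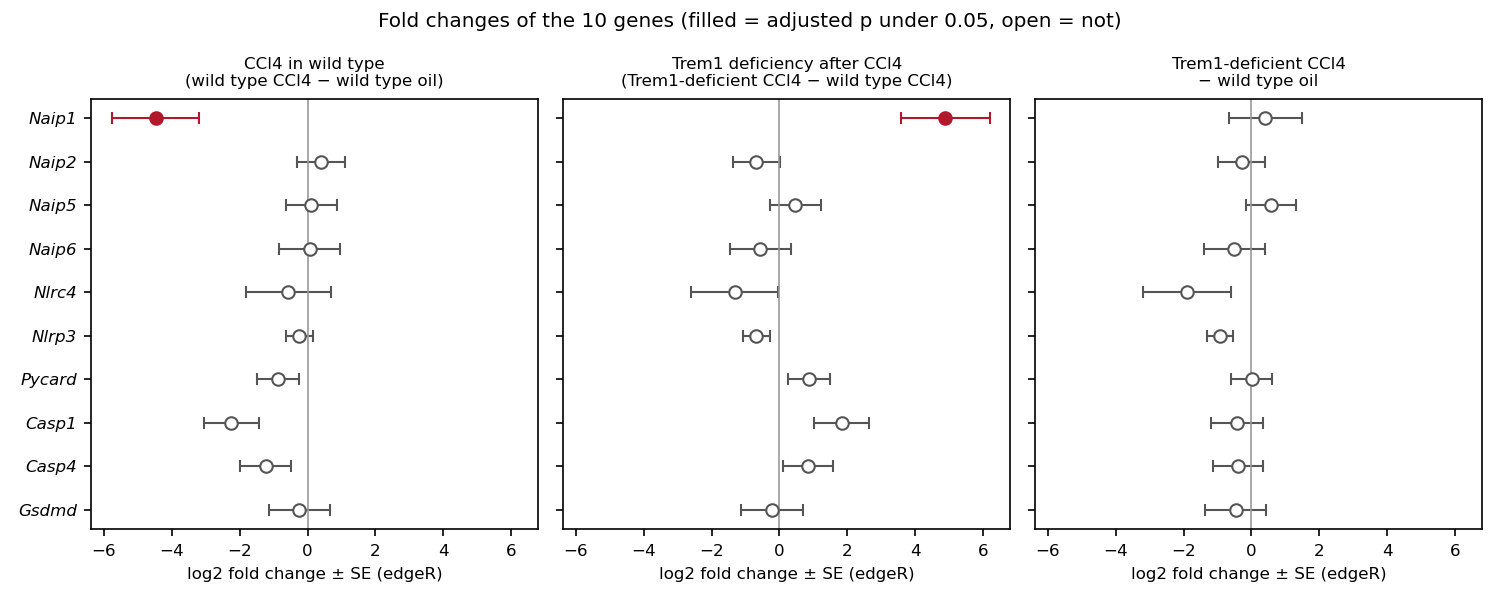
Log2 fold change ± SE (horizontal axes) of the 10 genes in the 3 comparisons between groups of 5 mice, from 1 edgeR fit over 15 mice; filled red points have an adjusted p under 0.05. Naip1 is filled at -4.48 and 4.89 in the first 2 panels, and every point is open in the panel of Trem1-deficient mice after CCl4 against oil.

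Counted over the 10 genes, all of which entered the test, 1 was lower and 0 were higher in wild type after CCl4, where 2.09% of 9001 tested genes were lower and 3.04% higher. For Trem1 deficiency after CCl4, 1 was higher and 0 were lower, against 0.778% and 1.28% of all genes. For Trem1-deficient mice after CCl4 against oil, 0 of 10 passed with edgeR and 0 with DESeq2, where 0.178% of all genes were higher and 0.0555% lower. At an unadjusted p under 0.05 there were 2, 2 and 1 (Nlrp3) of the 10 in the 3 comparisons, beside 19%, 15.2% and 4.66% of all 9001 genes. The median log2 difference of the 10 was -0.41, 0.12 and -0.40 in the 3 comparisons, beside 0.06, -0.03 and 0.02 over all tested genes. Signs were negative in 7, 5 and 7 of the 10.

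By mean level after oil, the order ran Nlrp3 (269 CPM), Casp4 (112), Casp1 (70.7), Pycard (57.7), Naip2 (52.4), Gsdmd (35.1), Naip5 (29.1), Naip6 (24.3), Nlrc4 (21.4) and Naip1 (21.2). From Casp1 downward each neighbour in that order differed by less than its SD over mice, which was 11.9 to 32.2 CPM. In Trem1-deficient mice after CCl4 the first 2 places were the same, and Nlrc4 was last with 5.74 ± 4.56 CPM (SD, n = 5). In wild type after CCl4, Casp1 stood eighth with 14.7 CPM and Naip1 last with 0.786 CPM.

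For each gene the 2 other genes of at least 10 CPM with the most similar pattern were found by the root-mean-square (RMS) difference of centred log2(CPM + 1) over the 15 mice, as a description. Nlrp3 was closest to Ccrl2 (RMS 0.341), a chemokine-binding receptor, and Tiparp (0.454), against its own spread of 0.724. Pycard was closest to Stab2 and Rnasek (0.444 each), against a spread of only 0.626. Stab2 is a scavenger receptor of sinusoidal endothelium. Casp4 was closest to Birc2 (0.465), an inhibitor of apoptosis protein, and Ckb (0.565), and Casp1 to Spg20 (0.539) and Ndufa12 (0.643), against spreads of 2.03 and 1.84. Naip1 was closest to 4930455G09Rik (0.611) and Nit2 (0.760), both low at 11.1 and 10.3 CPM, Naip2 to Fam174a (0.494) and Lcmt1 (0.559), Naip5 to AI662270 (0.515) and Fam193b (0.518), and Naip6 to Etfb (0.520) and Sfi1 (0.524). Those 4 NAIP genes had spreads of 2.11, 1.08, 0.881 and 1.01. Gsdmd was closest to Cir1 (0.617) and Nr1h2 (0.749), against a spread of 1.425. Nlrc4 was closest to Map4k3 (1.07) and Sik1 (1.12), the largest distances of the 10 but against a spread of 1.86. No member was among the 2 genes closest to another member.

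Around these genes, 5 lists of 59 pathway genes gave 44 tested genes. In wild type after CCl4, 1 of the 44 was higher and 2 were lower, beside 3.04% and 2.09% of all 9001 tested genes. With Trem1 deficiency after CCl4, 2 were higher and 1 lower, beside 0.778% and 1.28%. In Trem1-deficient mice after CCl4 against oil, 1 was higher and 0 were lower, beside 0.178% and 0.0555%. Among the substrates, other caspases and pores (7 tested), Il18, a cytokine that caspase-1 matures, was at 98.1, 50.6, 92.9, 78.5 and 94.2 CPM after oil, at 60.9, 62.5, 22.6, 5.64 and 13.6 CPM in wild type after CCl4 and at 107, 107, 119, 147 and 248 CPM in Trem1-deficient mice. Every Trem1-deficient mouse lay above every wild-type mouse of either treatment. Il18 was higher with Trem1 deficiency after CCl4 by 2.13 ± 0.56 on the log2 scale (adjusted p = 0.0418 in edgeR). That call was lost without any 1 Trem1-deficient mouse or without wild-type mouse 3 or 4 (adjusted p 0.0622 to 0.126), and within 1 index series the value was 2.38 (adjusted p = 0.187). Its difference in wild type after CCl4 was -1.32 ± 0.55 (adjusted p = 0.178). Il1b, the other main substrate, had a mean of 1908 CPM after oil, 1949 CPM in wild type after CCl4 and 1174 CPM in Trem1-deficient mice, and did not pass (adjusted p = 0.971 and 0.214 in the first 2 comparisons, edgeR).

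Of the inhibitors and decoys (7 tested), Il18bp and Il1r2 moved in opposite directions. Il18bp, the secreted protein that neutralises interleukin-18, fell in wild type after CCl4 from 303 ± 57.7 to 35.3 ± 37.4 CPM (SD, n = 5; log2 fold change -3.08 ± 0.66, adjusted p = 0.00613) and was higher with Trem1 deficiency at 200 ± 48.1 CPM (2.48 ± 0.64, adjusted p = 0.0451), by edgeR. The second of these calls was lost without any 1 Trem1-deficient mouse or without wild-type mouse 2 or 3 (adjusted p 0.0652 to 0.116), and within 1 index series the value was 2.60 (adjusted p = 0.229). The first was lost with the index series as a term (-3.34, adjusted p = 0.403). Il1r2, the decoy receptor for interleukin-1, rose from 10.3 ± 1.98 to 484 ± 295 CPM (5.53 ± 0.51, adjusted p = 3.29e-08) and was lower with Trem1 deficiency at 42.5 ± 11.2 CPM (-3.51 ± 0.46, adjusted p = 4.36e-05). It was also higher in Trem1-deficient mice after CCl4 than after oil (2.02 ± 0.45, adjusted p = 0.0465 in edgeR), a call that was lost on leaving out any 1 of those 10 mice (0.0554 to 0.153). With the index series as a term the first 2 values of Il1r2 were 5.88 and -3.66, both still past the threshold (adjusted p = 7.02e-05 and 0.00062, edgeR). For both genes the wild-type CCl4 mice overlapped neither other group. How many of all tested genes show such separation is not given, here or for the other genes described.

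Within wild type after CCl4, Il1r2 was at 751, 561 and 755 CPM in mice 2, 3 and 4, whose neutrophil marker sums were 6649, 7231 and 10643 CPM. It was at 109 and 245 CPM in mice 1 and 5, whose sums were 1460 and 1216 CPM. Il18bp was highest in mouse 1 (87.1 CPM) and lowest in mice 4 and 5 (1.69 and 2.73 CPM), the mice with the highest and the 2 lowest Kupffer marker sums. The part of these cells in either gene was not tested.

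Of the guanylate-binding proteins and interferon-inducible activators of the caspase-11 route (10 tested), Gbp7, an interferon-induced GTPase, fell in wild type after CCl4 from 153 ± 35.3 to 30.4 ± 30.0 CPM (SD, n = 5; -2.30 ± 0.67, adjusted p = 0.0400 in edgeR), with no overlap between the groups. The call was lost without any 1 oil mouse or without CCl4 mouse 2, 3 or 4 (adjusted p 0.0565 to 0.0966) or with the index series as a term (-1.31, adjusted p = 1.00). Mouse 1, with the highest Kupffer marker sum of the CCl4 group, also had its highest Gbp7 (73.4 CPM). The other mice did not follow that order. Mouse 4, with the lowest sum (4500 CPM), was next at 40.05 CPM, and mouse 2 (sum 7179 CPM) was lowest at 0.991 CPM. The part of Kupffer cells in Gbp7 was not tested. In Trem1-deficient mice Gbp7 was at 77.3 CPM, with a difference of 1.33 ± 0.65 that did not pass (adjusted p = 0.329 in edgeR). The median log2 difference of that list was -1.16 after CCl4 in wild type and 0.67 with Trem1 deficiency, with 5 and 0 of 10 at an unadjusted p under 0.05, beside 19% and 15.2% of all tested genes. None of 13 genes of NLRP3 activation and licensing and none of 7 other sensors passed in any comparison with edgeR or with DESeq2, which called the same genes as edgeR in the other 3 lists. At an unadjusted p under 0.05 there were 1, 1 and 0 of the 13 and 1, 0 and 0 of the 7 in the 3 comparisons, beside 19%, 15.2% and 4.66% of all tested genes.

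**Figure D4:**
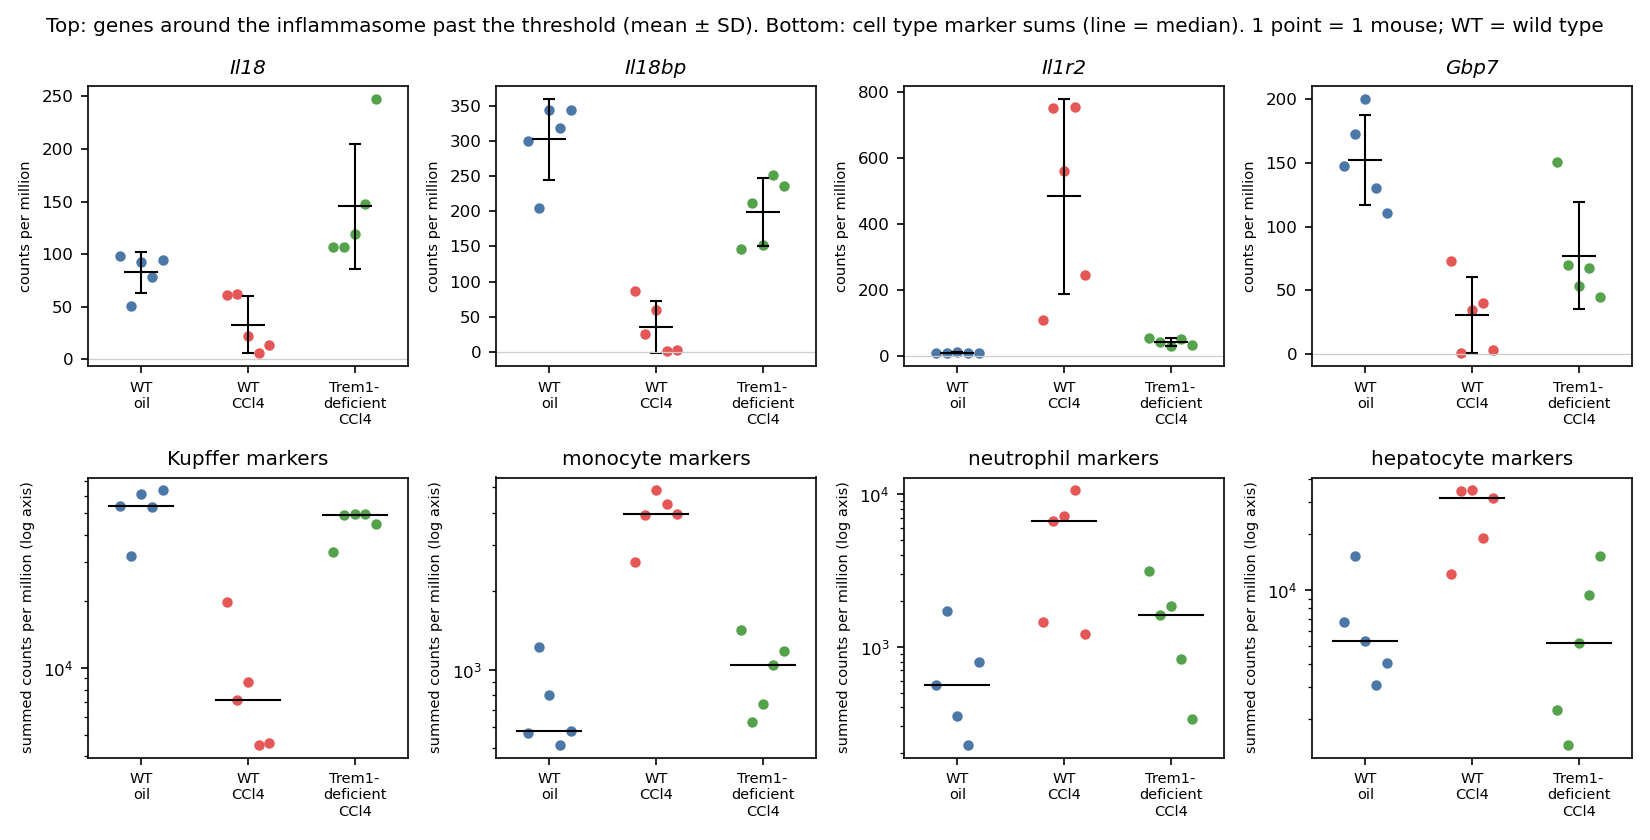
Top row, the 4 pathway genes that passed the threshold in at least 1 comparison, in TMM-scaled CPM (linear axes, mean ± SD of 5 mice). Bottom row, summed CPM of 12 Kupffer, 9 monocyte, 11 neutrophil and 12 hepatocyte markers (log axes, line at the median); each point is a mouse, and wild type after CCl4 has the lowest Kupffer sums (4500 to 19960).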

How the data were processed

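Kupffer cell RNA of 15 mice was sequenced as Lexogen QuantSeq 3′ tags, per the labels' protocols; 60 label entries are 4 lanes of each mouse, and the mouse was the replicate. The authors deposited raw counts, whole reads assigned to each gene, in a table with a column per mouse. The submitters' processing notes name Trimmomatic, STAR 2.5.1a, Partek 6.6 and mm10 without a role. The sources used here give neither the strand setting nor the annotation of the counting, so antisense reads cannot be told apart. Tallies of reads outside genes (4 lines) were left out. Any 2 libraries of a group differed beyond sampling noise (lowest chi-square 10.2 per degree of freedom).

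The main test was edgeR 4.0.16 (R 4.3.3; TMM scaling, filterByExpr by group, robust quasi-likelihood F-test, 1 fit of 3 groups with 12 residual degrees of freedom, Benjamini-Hochberg over 9001 genes, threshold 0.05). The labels number the mice separately, and it is their spread that p-values reflect. Alternatives were DESeq2 1.42.0 (test and size factors), no filter, a replicate block, an index series term, only the groups compared, and leaving out each mouse. Intervals of log2 differences are 95% from the SE and those degrees of freedom. The robust test itself can draw on more degrees of freedom, so the intervals can be wider than its p-values imply. The members and lists were chosen with earlier results of these data known. The rule named all 10 members, list genes past the threshold (up to 6 a list) and the 2 most similar genes of each member. Markers of 5 further cell types were also summed: dendritic cells, T and NK cells, B cells, stellate cells and sinusoidal endothelium. No molecular identifiers are mentioned, so counting intervals and floors cover counting error only.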

Additional observations from a re-analysis of the deposited data

Results flagged for a closer look

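Each of 10 genes in 3 groups of 5 mice was examined for a mouse far from the other 4 of its group, and 2 of 30 sets held one. Chance alone gives about 1 in 20 for normally distributed values, which low counts with zeros are not. Naip1 in wild-type mouse 1 after CCl4 was at 3.93 CPM while the other 4 mice were at 0, where any count above 0 would be flagged. Naip2 in wild-type mouse 5 after CCl4 was at 202 CPM, and the next highest mouse of that group was at 53.5 CPM. That library was the shallowest of the study, with 812320 counts, and its dendritic cell marker sum was the highest at 757 CPM; the part of either in Naip2 was not tested.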

How the results depend on the processing

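Of 30 results (10 genes in 3 comparisons), 20 kept their sign in every alternative and 26 their side of the threshold in every alternative. The exceptions on the threshold were Naip1 and Casp1, each with CCl4 in wild type and with Trem1 deficiency; no called value changed sign.

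Genes called with CCl4 in wild type numbered 462, and became 813 without a filter on low counts, 37 with the index series as a term and 1010 with DESeq2. Leaving out 1 mouse gave 302 (without oil mouse 3) to 759 (without wild-type CCl4 mouse 1). The 1 member called became 0 with the replicate block, 0 with the index series term, 0 with only the 2 groups compared, where Naip1 did not pass the low-count filter, and 2 with DESeq2 (Naip1 and Casp1); leaving out 1 mouse gave 0 to 2.

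Genes called for Trem1 deficiency after CCl4 numbered 185, and became 563 without the filter, 77 with the index series term, 57 within 1 index series and 616 with DESeq2. Leaving out 1 mouse gave 88 (without Trem1-deficient mouse 2) to 508 (without wild-type CCl4 mouse 1). The 1 member called became 0 with the replicate block, the index series term, only the 2 groups compared and within 1 index series; leaving out 1 mouse gave 0 to 2, the latter (Naip1 and Casp1) without wild-type CCl4 mouse 1. Genes called in Trem1-deficient mice against oil numbered 21, and became 73 without the filter, 11 with the index series term, 74 with DESeq2 and 12 to 29 on leaving out 1 mouse; no member was called in any of these.

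With the replicate block the 3 counts of genes were 365, 158 and 21. Naip1 was at -5.25 (adjusted p = 0.0563) and 5.63 (adjusted p = 0.0657) in edgeR, and Il18, Il18bp with Trem1 deficiency and Il1r2 against oil lost their calls too (0.0573, 0.0887 and 0.0573). Mice that share a number did not deviate together (correlations -0.0585 to 0.0386), so the numbers do not pair them. The cause of each change above was not tested, apart from the filter on Naip1. No comparison of oil with CCl4 in wild type exists within an index series. At these depths 3 counts are 0.988 to 4.09 CPM; Naip1, Nlrc4, Casp1 and Casp4 had mice at 0 counts.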
